A study of Mus musculus with 4 samples.

Results

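The cytosolic ribosomal protein genes encode the proteins of the small and the large subunit of the ribosome that translates messages in the cytoplasm. Members were taken by gene symbol: every probe set with a single symbol that starts with Rpl or Rps followed by a number. Rplp0, Rplp1, Rplp2 and Rpsa were added, and symbols with -ps, which mark pseudogenes, and the S6 kinase genes were left out. This gave 49 genes, 26 of the large and 23 of the small subunit, among 18193 genes with a single-symbol probe set. They were measured by 105 probe sets, and the probe set with the highest mean level stood for each gene. RefSeq holds 84 protein-coding mouse genes that match the same symbols, and the rest of them were not analysed here. It lists Rps4l, 1 of the 49, as a transcribed pseudogene.

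RNA levels were measured in 4 microarray libraries of BA/F3, an established mouse cell line whose growth needs interleukin 3 and in which early B cell genes are often studied. The title, source name and genotype fields say that 2 libraries came from cells with an inducible human ETV6-RUNX1 (TEL-AML1) gene and 2 from BA/F3 cells without it. A translocation of childhood B-cell leukemia creates this chimeric transcription factor. Both lines received 32.5 pM mifepristone, which switches the transgene on, for 16 h, so the control cells carry the inducer but not the fusion. The description field exchanges the conditions of the replicate 1 libraries: there, ETV6-RUNX1 replicate 1 is a control and control replicate 1 expresses the fusion. Libraries are named by title below, and the members are compared by title and by description. The groups by description are control replicate 1 with ETV6-RUNX1 replicate 2 (described fusion) and ETV6-RUNX1 replicate 1 with control replicate 2 (described control). Nothing in the labels says that replicates came from separate cultures, so the p-values reflect spread among these libraries alone, which may be technical. Whether each line is 1 clone, and what promoter drives the transgene, is not given in the sources used here.

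Ribosomal proteins are made in matched amounts and are among the most abundant products of a growing cell. Most of their messages begin with a terminal oligopyrimidine (TOP) tract, a run of C and T at the very start of the transcript, through which mTOR signalling controls their translation. MYC raises the transcription of ribosomal protein genes and of the assembly factors that build ribosomes in the nucleolus. Ribosomal protein dosage has a known tie to blood formation, because loss of 1 copy of several of these genes causes Diamond-Blackfan anemia.

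RefSeq promoter windows (GRCm38.p6, 250 bases before to 50 after an annotated start) were matched by symbol to 43 of the 49 genes, with 51 windows in all. Stretches of 40 bases before and 20 after the start are shown for the 5 members with an unadjusted p under 0.05 by description (Rpl12, Rpl14, Rps25, Rpl27 and Rpl22l1), for Rps6, which lay furthest above, and for Rps9 and Rpl41, whose probe sets disagreed. The longest run of C and T that reaches within 10 bases of the start is in capitals. They lie at chr2:32961672-32961731 (+) for Rpl12, chr9:120571477-120571536 (+) for Rpl14, chr9:44407674-44407733 (+) for Rps25, chr11:101442205-101442264 (+) for Rpl27, chr3:28805468-28805527 (+) for Rpl22l1, chr4:86857348-86857407 (-) for Rps6, chr7:3704001-3704060 (+) for Rps9 and chr10:128549149-128549208 (-) for Rpl41.
Rpl12: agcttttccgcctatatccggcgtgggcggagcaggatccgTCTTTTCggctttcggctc
Rpl14: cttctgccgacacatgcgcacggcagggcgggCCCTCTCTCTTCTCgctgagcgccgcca
Rps25: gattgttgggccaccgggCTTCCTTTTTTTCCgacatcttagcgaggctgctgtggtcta
Rpl27: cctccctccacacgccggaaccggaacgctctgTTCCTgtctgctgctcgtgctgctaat
Rpl22l1: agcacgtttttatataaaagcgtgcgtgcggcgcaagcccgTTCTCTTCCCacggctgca
Rps6: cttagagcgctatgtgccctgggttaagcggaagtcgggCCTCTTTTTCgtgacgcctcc
Rps9: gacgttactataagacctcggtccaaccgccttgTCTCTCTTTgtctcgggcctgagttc
Rpl41: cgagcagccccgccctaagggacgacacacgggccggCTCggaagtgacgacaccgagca

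The run was 14 bases long in Rpl14 and Rps25, 10 in Rps6 and Rpl22l1, 9 in Rps9, 7 in Rpl12, 5 in Rpl27 and 3 in Rpl41. Members that lay lower by description thus had both long and short runs, and Rps6, on the other side, had a long one. The runs of Rps25, Rpl27 and Rpl41 lie wholly before the annotated start, so a run counted here need not be a TOP tract. A run of at least 6 C or T was found in 27 of the 51 member windows, or 52.9%, against 29.2% of all 32851 windows. The core ETS letters CCGGAA, searched on both strands of the 300-base window, were in 28 member windows, or 54.9%, against 14.9% of all. No link between these letters and the fusion was tested. The RUNX letters TGTGGT were in 4 member windows, or 7.84%, against 16.8% of all, and the E-box CACGTG, to which MYC binds, in 5, or 9.8%, against 7.15%. A match is a description of these letters and not a binding site, and no binding was measured here.

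The library values are log2 levels. Each library held values from 2.23 to between 16.29 and 16.33, and values within 0.5 of the lowest, called background here, made up 54.8% to 55.0% of the probe sets. Each library had between 17517 and 17688 probe sets at 4 or more. Testing was limited to the 17720 probe sets that averaged 4 or more. Of the defining early B cell genes, Pax5, Ebf1, Vpreb1 and Rag1 lay at background in every library, and Cd79b, a chain of the B cell receptor, read 8.31 to 8.81. Csf2rb, the shared chain of the interleukin 3 receptor, read 14.08 to 14.78. Of 10 markers of mast cells, basophils and myeloid cells, Kit and Elane lay at background, and the median difference was 1.21 by description and -0.72 by title. Their summed linear level, to which Gata2 at 12.44 to 13.26 gave most, was 11833 in control replicate 1 and 6332 to 6821 in the other libraries. Fcer1a, a chain of the IgE receptor, read 9.91 and 7.69 in the described fusion libraries and 2.37 and 2.32 in the described controls. Hdc, which makes histamine, read 8.16 and 7.84 against 3.70 and 5.09. Mpo, of the same list, went the other way, with a difference of -1.49 by description, and was the only marker of the list to do so. Of the tested erythroid and megakaryocyte markers, Klf1 differed by -2.37 and Itga2b by 0.25 by description. The array's 3' minus 5' difference was 0.63 to 0.70 for beta-actin and -0.37 to -0.30 for Gapdh. For the transferrin receptor, whose 5' probe set averaged 3.71, under the limit of 4, it was 1.31 in ETV6-RUNX1 replicate 1 and 3.87 to 4.53 in the others. For the dap labelling spike it was larger on average in the described fusion libraries, by 0.93 in the DapX control and by 0.85 in the r2-Bs-dap control. The part of these in the results below was not tested. In a bulk sample fewer cells of a type and less RNA per cell cannot be told apart.

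Ribosomal protein genes were among the brightest features of the array. The median of the 44 tested members was 14.77 in ETV6-RUNX1 replicate 1, 14.72 in control replicate 1, 14.82 in control replicate 2 and 14.77 in ETV6-RUNX1 replicate 2, whereas the median of all tested probe sets lay between 8.10 and 8.15. The brightest was Rps29, a small subunit protein, at 15.94, 16.02, 15.98 and 15.98 in the same order of libraries. Rps7 followed with a mean of 15.77 and Rps20 with 15.71. These 3 differed between libraries by no more than 0.08. Of the members, 34 had a mean of at least 14, 6 lay from 10 to under 14, and Rps6, Rpl27a, Rpl12 and Rpl39 lay from 4 to under 10. A level depends on the probes as well as on the transcript, so the order says nothing about how much of each protein's message was present.

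The 5 members below the filter were Rps27 at a mean of 3.98, Rpl39l at 2.27, and Rpl3l, Rps16 and Rps4l at 2.23. Rps27 lay just under the limit, and the lowest member above it was Rpl39, at 6.98 to 7.07. Rps16 is a core protein of the small subunit that every ribosome needs, so its background reading describes that probe set and not the gene. Probe sets listed for Rps16 together with other genes read 14.60 and 15.81 on average, and one listed for Rps27 with another gene read 15.26. Rpl3l, a muscle paralogue of Rpl3, and Rpl39l, a testis paralogue of Rpl39, also lay at background in all 4 libraries. A further 110 probe sets name a ribosomal protein gene together with other genes, mostly its pseudogenes, and were not counted as members. Of these 100 passed the filter, at levels of 4.95 to 16.31, with a median difference of -0.032 by title and -0.03 by description. By description they ran from -1.91, at a dim probe set that names Rpl9, to 1.31, at a probe set that Rpl13a shares with Flt3l.

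The values hardly varied between libraries. The range over the 4 libraries had a median of 0.13 for the tested members, from 0.04 to 2.54, against 0.71 for all tested probe sets. Level goes with this: among the 34 members at 14 or more the median range was 0.11. Among all 281 probe sets at that level, which include them, it was 0.16, and among all tested probe sets from 4 to under 10 it was 0.77. The highest value of each library lay between 16.29 and 16.33, and whether values near this top are compressed was not tested. Here and below the 281 hold 61 member probe sets, and shared probe sets of ribosomal protein genes as well. The family is thus compared partly with itself. The description split held 67.3% of the members' variance over the libraries, the replicate numbers 26.4% and the title split 6.26%. Without Rpl12 these shares were 61.7%, 22.9% and 15.4%, and over all tested probe sets 53.9%, 36.5% and 9.61%.

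**Figure D1:**
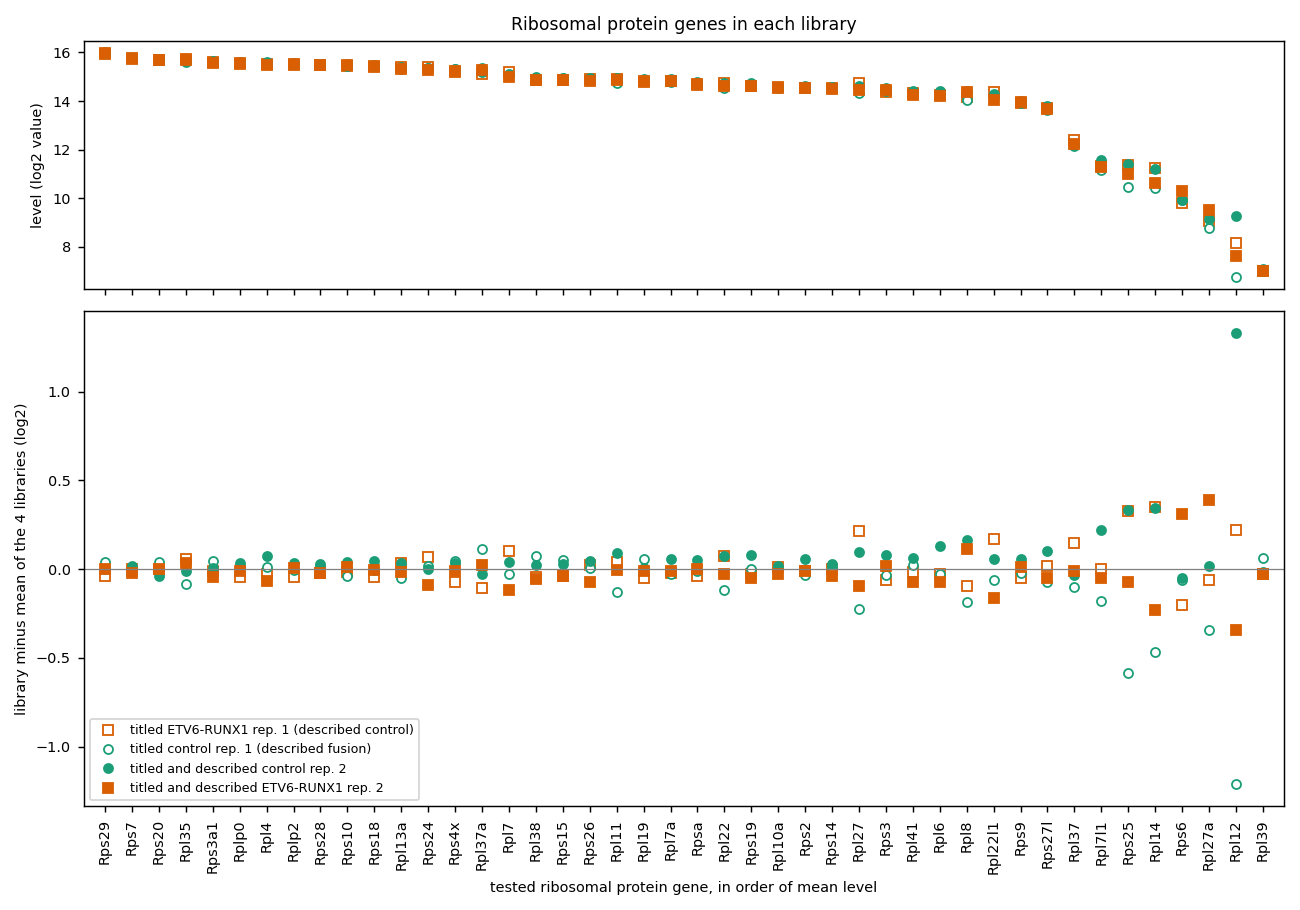
Level (top, log2) and deviation from the mean of the 4 libraries (bottom, log2) of the 44 tested ribosomal protein genes in order of mean level, with 1 point per library; colour and shape give the title and open symbols the libraries whose description differs from it. Points lie close together on the left, where levels are 14 or more, and spread for Rps25, Rpl14, Rps6, Rpl27a and Rpl12, with a range of 2.54 for Rpl12.

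By title, no ribosomal protein gene passed the test between ETV6-RUNX1 and control libraries. In limma 0 of the 44 tested members passed an adjusted p of 0.05, 0 had an unadjusted p under 0.05, and the lowest adjusted p was 1; over all 17720 tested probe sets 0, or 0%, passed and 50, or 0.282%, had an unadjusted p under 0.05. The members' median difference was -0.038, against -0.012 for all tested probe sets, and the differences ran from -0.12 to 0.32. Of the members 42 differed by less than 0.2, or 95.5%, against 66.1% of all. At a level of 14 or more all 34 members did, against 95.4% of all 281 probe sets of that level.

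By title 32 of 44 members were lower in the ETV6-RUNX1 libraries, where 52.6% of all tested probe sets were. Without control replicate 2 the count was 23, and without any other single library it was 29 to 39. In 14 members both ETV6-RUNX1 libraries lay below both control libraries, against 6.04% of all tested probe sets, and in 2, Rpl35 and Rpl37, both lay above, against 4.65%. Among the 34 members at a level of 14 or more, 27 were lower, against 61.2% of all probe sets of that level, and 13 were separated downward, against 22.8% of all 281 probe sets of that level. The count of separated members in either direction, 16 against 10.7% of all tested probe sets, became 8 when the median of the tested probe sets was set equal in every library. The 4 members furthest below were Rpl12, Rpl6, Rpl38 and Rpl37a, from -0.12 to -0.09, and the 4 furthest above were Rpl27a, Rps25, Rpl37 and Rpl27, from 0.13 to 0.32.

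Rpl38, a large subunit protein tied to the translation of Hox messages, read 14.87 and 14.86 in ETV6-RUNX1 replicates 1 and 2 and 14.99 and 14.94 in the controls. The groups did not overlap, and the difference of -0.10 (SE 0.07, limma adjusted p = 1) did not pass. Rpl27a read 9.06 and 9.51 in ETV6-RUNX1 replicates 1 and 2 and 8.78 and 9.14 in the controls. Here the groups overlapped, and the gap of 0.32 (SE 0.31), the largest of the tested members by title, had a limma adjusted p of 1. It was 0.099 without ETV6-RUNX1 replicate 2 and 0.54 without ETV6-RUNX1 replicate 1. A brighter probe set listed for Rpl27a together with other genes differed by -0.04 by title.

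By description a few members at different levels lay lower in the described fusion libraries, while 37 of the 44 differed by less than 0.2. None passed the test, and 33.9% of all tested probe sets differed by less than 0.2. At a level of 14 or more 32 of 34 members did, against 81.9% of all 281 probe sets of that level. In limma 0 of 44 members passed the threshold, 5 had an unadjusted p under 0.05, all 5 lower, and the lowest adjusted p was 0.16; over all tested probe sets 2, or 0.0113%, passed and 19.7% had an unadjusted p under 0.05. The median difference was -0.036, against -0.012 for all tested probe sets. Of the members 31 were lower, where 51.2% of all tested probe sets were. Without control replicate 2 the members' median was -0.00058 and 23 were lower. The groups did not overlap in 14 members that were lower, against 25.1% of all, and in 1 that was higher, Rpl37a, against 25.3%. A difference of at least 2-fold was seen in 1 member, Rpl12, against 9.93% of all tested probe sets.

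Rpl12, which sits in the stalk base of the large subunit where translation factors bind, had the largest difference of the tested members, at a dim probe set. It read 8.16 in ETV6-RUNX1 replicate 1, 6.73 in control replicate 1, 9.27 in control replicate 2 and 7.60 in ETV6-RUNX1 replicate 2. Both described fusion libraries were below both described control libraries. The means were 7.16 ± 0.61 (SD, n = 2) and 8.72 ± 0.78, a gap of 2.93-fold (-1.55 on the log2 scale, SE 0.54, adjusted p = 0.25 in limma). By title its groups overlapped, with a difference of -0.12 (SE 0.98) that ran from -1.39 without control replicate 1 to 1.15 without control replicate 2. The difference by description was -2.11 to -1.0 with 1 library left out. Bright probe sets listed for Rpl12 together with other genes, at levels of 14.83 and 15.17, differed by -0.08 and -0.06 by description.

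Rpl14, a large subunit protein, read 11.22, 10.40, 11.21 and 10.64 in ETV6-RUNX1 replicate 1, control replicate 1, control replicate 2 and ETV6-RUNX1 replicate 2. The described control libraries were alike and both above the described fusion libraries, by 1.62-fold (log2 difference -0.69, SE 0.14, limma adjusted p = 0.16). Rps25, a small subunit protein used in initiation at internal entry sites, read 11.38, 10.47, 11.39 and 10.98 in the same order. Its groups did not overlap either, and it differed by -0.66 (SE 0.21, limma adjusted p = 0.23). In both genes control replicate 1 was the lowest library. Brighter probe sets listed for these genes together with others were closer to 0: those of Rpl14, at levels of 14.78 to 15.50, differed by -0.14 to -0.04, and that of Rps25, at 15.16, by -0.05. With 1 library left out the Rps25 difference ran from -0.91 to -0.40.

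Rpl27, at a level above 14, read 14.75, 14.31, 14.63 and 14.44 in that order, or -0.31 by description (SE 0.08, adjusted p = 0.20 in limma). Its other 2 probe sets differed by -0.11 and -0.23. Rps6, the small subunit protein that S6 kinases phosphorylate, had the largest positive difference. It read 9.78, 9.92, 9.93 and 10.29, so the described fusion group overlapped the other, and the difference of 0.25 (SE 0.19, limma adjusted p = 0.55) did not pass. It was 0.062 without ETV6-RUNX1 replicate 2 and 0.43 without control replicate 1. The tested probe sets listed for Rps6 together with a pseudogene differed by 0.07 to 0.22. The next members on the positive side, Rpl37a at 0.13, then Rpl19, Rpl39, Rpl27a, Rps29 and Rps20 at 0.04 each, were closer to 0. Further probe sets of Rpl37a, at levels of 15.18 and 7.69, differed by 0.10 (SE 0.08) and -0.71 (SE 0.50).

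By description 17 of 24 tested large subunit genes were lower, 11 without overlap, with a median of -0.059, and 14 of 20 small subunit genes were lower, 3 without overlap, with a median of -0.014. By title the medians were -0.027 and -0.040, with 14 of 24 and 18 of 20 lower. Over all tested probe sets 25.1% were lower without overlap by description, and 51.2% by description and 52.6% by title were lower. The difference between the subunits was not tested. No member of either subunit passed the threshold in either grouping.

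The stalk proteins, which recruit the translation GTPases, had a range of 0.08 over the libraries in both genes tested. Rplp0 read 15.53, 15.59, 15.61 and 15.56 in ETV6-RUNX1 replicate 1, control replicate 1, control replicate 2 and ETV6-RUNX1 replicate 2, and Rplp2 read 15.48, 15.52, 15.56 and 15.53. The differences of Rplp0 were -0.05 (SE 0.05) by title and 0.01 (SE 0.05) by description, and those of Rplp2 were -0.04 (SE 0.06) and 0.01 (SE 0.05). Rpsa, the small subunit protein also known as the laminin receptor, had a range of 0.10 over the libraries. Rplp1 had only a probe set shared with another gene and is given no value.

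Rpl11, which with Rpl5 binds and inhibits the p53 ligase MDM2 when ribosome assembly is disturbed, read 14.90, 14.73, 14.95 and 14.85 in the same order. Both described fusion libraries lay below the others, by 0.14 on average (log2 difference -0.14, SE 0.07, limma adjusted p = 0.36), and by title it differed by 0.03. Rpl5, Rpl23, Rpl10 and Rpl3 had only probe sets shared with other genes, which are no members and cannot be assigned to 1 gene, and Rpl10l and Rps27a were not analysed here.

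Of 18 genes mutated in Diamond-Blackfan anemia on the list used, 10 were tested members. Of these 7 were lower by title and 9 by description, with medians of -0.021 and -0.048, and 0 passed in either grouping. Rps19, the gene most often mutated in the disease, read 14.62, 14.65, 14.73 and 14.60, with a difference of -0.08 (SE 0.07) by title and -0.05 (SE 0.07) by description. Rps24 and Rps26 differed by -0.07 each by description. Rps14, the gene lost in the marrow disorder with a deletion of the long arm of human chromosome 5, had a range of 0.07 over the libraries.

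The paralogues replace or accompany a main ribosomal protein in some tissues. Of the 7 listed, Rpl7l1, Rpl22l1 and Rps27l were tested, and Rps4l is a transcribed pseudogene in RefSeq. Rpl22l1, which is repressed by its paralogue RPL22, read 14.39, 14.16, 14.28 and 14.06 in ETV6-RUNX1 replicate 1, control replicate 1, control replicate 2 and ETV6-RUNX1 replicate 2. Its described fusion libraries were both below its described control libraries, by -0.23 (SE 0.08, limma adjusted p = 0.24). Rpl22 itself, which is needed for the development of some T cells, also differed downward, by -0.15 (SE 0.06, limma adjusted p = 0.30), so both lay lower by description, and neither passed the test.

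Rps27l, a p53 target, differed by -0.12 (SE 0.07) by description at the probe set that stands for it and by -0.19 and -0.12 at its others. Rpl7l1, an assembly factor related to Rpl7, differed by -0.22 (SE 0.14), and Rpl7 by -0.15 (SE 0.06). Rps4x, the parent of Rps4l, differed by 0.03 and Rpl39, the parent of Rpl39l, by 0.04. None of these passed the threshold. By title the 3 tested paralogues differed by -0.05 to 0.01.

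Dimmer member probe sets gave another picture by description. In all 89 member probe sets passed the filter. The 61 at a level of 14 or more had a median difference of -0.021 by description and 93.4% differed by less than 0.2, against 81.9% of all 281 probe sets of that level. The 14 from 10 to under 14 had a median of -0.17, with 13 lower, against 53.5% of all probe sets of that level, and 10 of them without overlap, against 31.4%. The 14 from 4 to under 10 had a median of -0.64, with 10 lower, against 50.5%, and 7 without overlap, against 23.4%. In that lowest band 5 differed at least 2-fold, all lower, against 11.1% in either direction. By title the medians of the 3 bands were -0.039, -0.023 and 0.027. Of the 14 from 10 to under 14, 6 stand for their gene, and of the 14 from 4 to under 10, 4 do, so these were counted above as well. The bands hold few probe sets, several from the same gene, and 0 of the 89 passed the threshold.

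**Figure D2:**
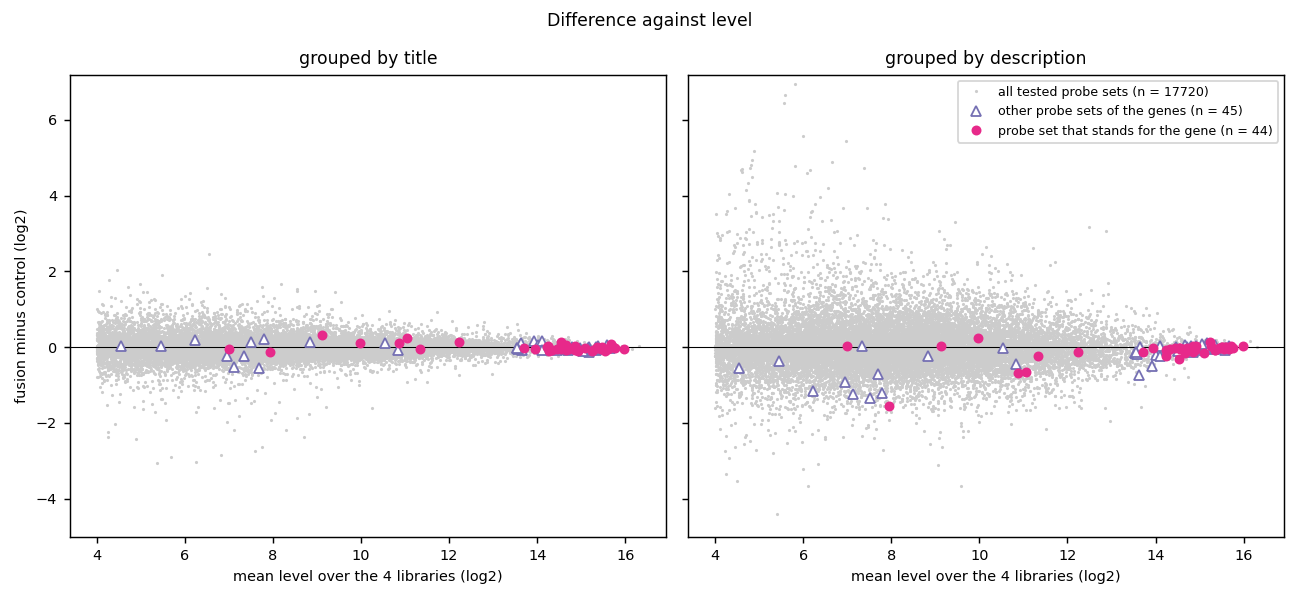
Fusion minus control difference (log2) against mean level (log2), by title (left) and by description (right); grey points are all 17720 tested probe sets, circles the 44 probe sets that stand for a ribosomal protein gene and triangles the 45 other tested probe sets of these genes. By description the symbols at a level under 10 lie mostly below 0, down to -1.55, while those at 14 or more lie between -0.31 and 0.13.

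Of the 20 genes with more than 1 tested probe set, 9 had a dimmest probe set under a level of 10. In 8 of these 9 the dimmest was more negative by description than the brightest, by a median of -0.70 over the 9. In the other 11 genes it was more negative in 3, with a median of 0.02. Rpl41, the smallest ribosomal protein, and Rps20, a small subunit protein, had probe sets of opposite sign that lay more than 1 apart. Rps9 and Rpl13a, named in the paragraphs below, were chosen after their values were seen.

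The brightest probe set of Rpl41 read 14.32, 14.36, 14.40 and 14.26 in ETV6-RUNX1 replicate 1, control replicate 1, control replicate 2 and ETV6-RUNX1 replicate 2, a difference of -0.05 (SE 0.07) by description. Its dimmest tested probe set read 7.62, 6.15, 8.72 and 7.52, or -1.33 by description (SE 0.66, adjusted p = 0.37 in limma). The dim probe set separated the described groups narrowly, with control replicate 1 far below the rest. Rps20 differed by 0.04 at its brightest probe set and by -1.15 (SE 0.46, limma adjusted p = 0.29) at one that read 6.50, 5.16, 7.11 and 6.16. Rps9 differed by -0.01 at its brightest probe set and by -1.23 (SE 0.35, limma adjusted p = 0.21) at one that read 7.32, 6.62, 8.14 and 6.38. In both, control replicate 2 was the highest library.

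Rpl13a, a protein released from the ribosome in the interferon response, had more negative differences at its dimmer probe sets. Its 4 probe sets had means of 15.36, 14.19, 13.92 and 13.63 and differed by -0.07, -0.18, -0.50 and -0.74, the last with SE 0.10 and limma adjusted p = 0.13. Rpl7l1 differed by -0.22, -0.43 and -0.92 at levels of 11.34, 10.83 and 6.96. Rps24 was the exception among genes with a dim probe set, at 0.03 at a level of 7.34.

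The same library order recurred at dim probe sets. Of the 14 member probe sets from 4 to under 10, control replicate 2 was the highest library in 10 and control replicate 1 the lowest in 10. Over all tested probe sets of that band the shares were 28.1% and 26.2%. Control replicate 1 and control replicate 2 share a title group, so this spread lies within the title grouping and between the description groups. These libraries differ in replicate number as well. At the dimmest tested probe set of Rpl41 replicate 2 minus replicate 1 was 1.24, beside -1.33 by description. At that of Rps9 it was 0.29, beside -1.23. Which part of a transcript each probe set reads was not examined here.

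**Figure D3:**
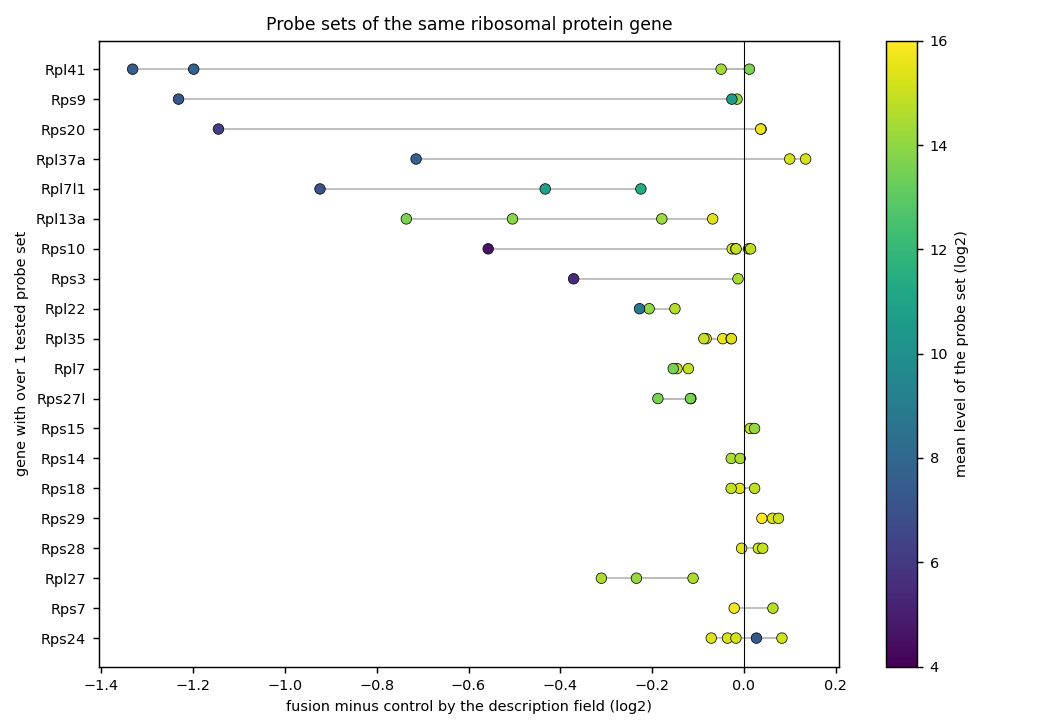
Fusion minus control difference by description (log2, horizontal) of every tested probe set of the 20 ribosomal protein genes with more than 1 (vertical), with 1 point per probe set coloured by its mean level (log2). Bright probe sets (yellow and light green) cluster near 0, and the dark points of Rpl41, Rps9 and Rps20 lie at -1.33, -1.23 and -1.15.

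In the replicate 2 pair the title and the description name the same conditions, and a comparison of 1 library with 1 has no check by replicates. ETV6-RUNX1 replicate 2 was lower than control replicate 2 in 38 of 44 members, where 51% of all tested probe sets were lower. The median was -0.056, against -0.0088 for all, from -1.67 for Rpl12 to 0.36, which Rps6 and Rpl27a both reached, and 1 member differed at least 2-fold, against 11.4% of all. In the replicate 1 pair, taken by title, 21 members were lower and 22 higher, with a median of 0.00028, and Rpl12 was 1.43 higher in the library titled ETV6-RUNX1. Both pairs are parts of the groupings above.

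Genes that work with ribosomal proteins were read from lists chosen for their role. Of 18 tested translation factors and other genes with TOP messages, 13 were lower by description, with a median of -0.078 and 11 within 0.2, and 10 were lower by title, with a median of -0.025. Npm1, a nucleolar chaperone, differed by -0.55 (SE 0.07), Nap1l1, a histone chaperone, by -0.39 (SE 0.08) and Hnrnpa1, a splicing factor, by -0.38 (SE 0.11). Fau, which encodes a fusion protein that releases a small subunit ribosomal protein, read 14.61, 14.71, 14.69 and 14.56 in ETV6-RUNX1 replicate 1, control replicate 1, control replicate 2 and ETV6-RUNX1 replicate 2. It differed by -0.01 by description and by -0.11 by title.

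Assembly factors lay lower by description by more than the bright ribosomal protein probe sets did; this difference was not tested. All 7 tested factors of the small subunit were lower, 6 without overlap, against 25.1% of all tested probe sets, with a median of -1.27. By title 5 were lower, with a median of -0.041. Pno1 differed by -1.19 (SE 0.22), Ltv1 by -1.33 (SE 0.30) and Nob1, the nuclease that trims the small subunit RNA, by -1.27 (SE 0.30). Of 11 factors of the large subunit 10 were lower, 8 without overlap, against the same 25.1%, with a median of -1.01. By title 8 of the 11 were higher, with a median of 0.14. Gnl2 differed by -1.28 (SE 0.19), Rrs1 by -1.26 (SE 0.21) and Gtpbp4 by -1.05 (SE 0.20). The median levels of the lists were 9.35 and 10.45, and member probe sets under 14 also lay lower. In limma 0 of these genes passed the threshold, and the lowest adjusted p was 0.14.

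Of 5 dedicated chaperones that escort single ribosomal proteins 4 were lower by description, with a median of -0.75, and all 5 were higher by title, with a median of 0.063. Grwd1, which escorts RPL3, differed by -1.03 (SE 0.31), Bccip, which escorts RPL23, by -1.0 (SE 0.26) and Tsr2, which escorts RPS26, by -0.75 (SE 0.36). Of 7 genes in the mTOR control of TOP messages 6 were lower by description, with a median of -0.33, and 5 were higher by title, with a median of 0.038. Larp1, which binds the TOP tract, differed by -0.90 (SE 0.13), Rps6kb2, an S6 kinase, by -0.45 (SE 0.31) and Eif4ebp2, a translation repressor, by 0.23 (SE 0.13). Of the 6 ribosome rescue genes all were lower by description, with a median of -0.22, and 4 were lower by title, with a median of -0.016. Abce1, which splits ribosomes after termination, differed by -1.48 (SE 0.21), Pelo by -0.87 (SE 0.41) and Nemf by -0.31 (SE 0.27).

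Myc, which read 10.38, 7.27, 9.94 and 7.96 in ETV6-RUNX1 replicate 1, control replicate 1, control replicate 2 and ETV6-RUNX1 replicate 2, was 5.84-fold apart by description (-2.55 on the log2 scale, SE 0.33, adjusted p = 0.13 in limma). By title it differed by 0.56. Over the 54 tested genes of the lists, without Myc, 46 were lower by description, 29 without overlap, against 25.1% of all tested probe sets, with a median of -0.36. By title 24 were lower and 30 higher, with a median of 0.016. None of the 54 passed the threshold in either grouping, with 20 at an unadjusted p under 0.05 by description, against 19.7% of all tested probe sets, and 0 by title, against 0.282%.

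**Figure D4:**
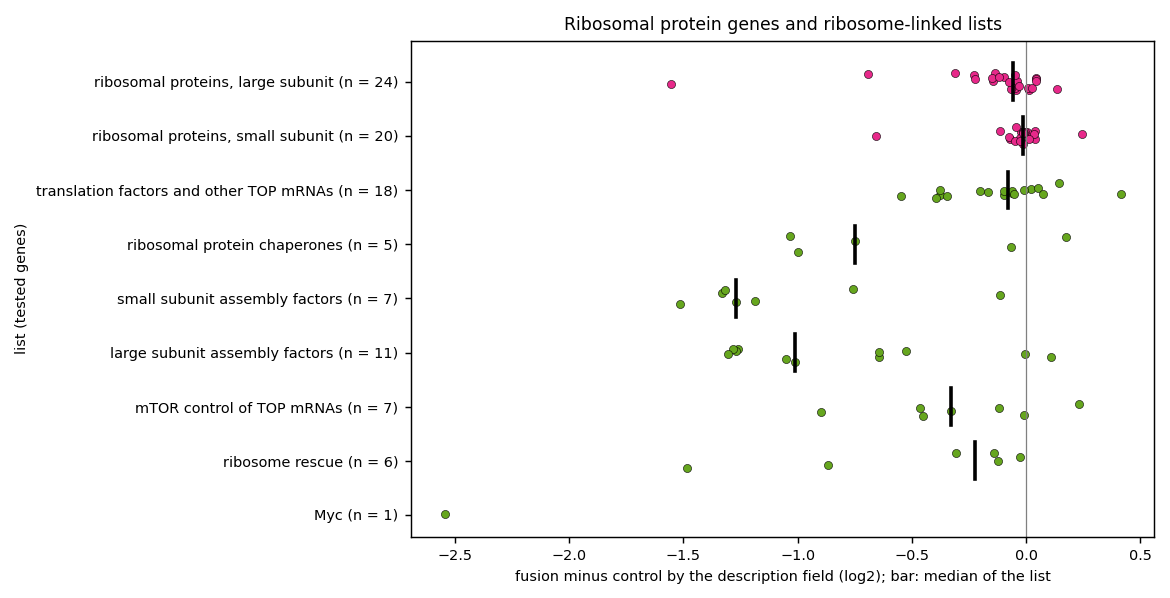
Fusion minus control difference by description (log2, horizontal) of each tested gene in the ribosomal protein subunits and in the ribosome-linked lists (vertical), with 1 point per gene, shifted at random vertically, and a bar at the median. The subunits cluster near 0 with medians of -0.059 and -0.014, and the small and large subunit assembly factors have medians of -1.27 and -1.01.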

How the data were processed

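Per the submitters' processing notes the authors used GCRMA 2.28.0, and the deposited table holds log2 values for 45101 probe sets in 4 libraries; the log2 scale was read from the values. Per the labels' protocols, total RNA was labelled with a 3' in vitro transcription kit, although titles and design text speak of chromatin immunoprecipitation. The method corrects background by probe sequence, which compresses values near the floor. An array has no sequencing depth, so precision is set by how many libraries there are.

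Tests left out 64 control probe sets. The groups were fitted in limma 3.58.1 (R 4.3.3; lmFit, then eBayes with its trend option), two-sided. Adjustment was Benjamini-Hochberg over the 17720 probe sets with a mean of at least 4, with 2 residual degrees of freedom, and the fit was tested on simulated data. Symbols came from the platform annotation, and 0 of the 49 changed through RefSeq. Members and lists were chosen with earlier results of these data known.

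Members were named by role, as the 6 furthest on each side by description, the 4 furthest on each side by title, the 3 at each end of level, those below the filter, and those with probe sets of opposite sign over 1 apart. Rps9 and Rpl13a were named after their values were seen. From each list up to 3 genes with the smallest p by description were named. Alternatives were the filter, the scaling, the choice of probe set, the variance trend, the replicate block, the family definition and leaving out each library. Probe sets that also read near-identical pseudogenes cannot be told apart from the gene itself.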

Additional observations from a re-analysis of the deposited data

How the results depend on the processing

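No member passed the threshold under any alternative run, in either grouping. With the replicate block 0 members passed by title (lowest adjusted p 1) and 0 by description (lowest adjusted p 0.059); the block left 0 calls over all tested probe sets in both, against 0 and 2 without it. By description the calls over all probe sets were 42 with the filter at a mean of 10, 14 after quantile normalization, 11 with the mean of each gene's probe sets, 10 with equal medians, 2 without the variance trend, and 0 without a filter or with any 1 library left out; by title they were 0 in all of these. Deviations of same-numbered libraries correlated at -0.20 by title and 0.59 by description; with the crossed pairing 0 probe sets passed by title. The members' median stayed below 0 in every setting run: by title from -0.058 to -0.0093, and by description, with 1 library left out, from -0.057 to -0.00058, the last without control replicate 2. With the median of the tested probe sets set equal it was -0.071 by description, beside -0.047 for all tested probe sets. The count of members without overlap, 16 by title and 15 by description, became 8 and 25 under that scaling, and 25 to 35 and 26 to 32 with 1 library left out, where a group holds a single library. Of 30 named members 13 kept 1 sign by title in every setting that gave them a value (13 or 14 settings) and 17 did so by description (12 or 13). The probe set with the lowest mean of each gene, a setting chosen after seeing the data, gave a median of -0.061 by description. Near the floor differences are compressed, and 2 libraries a group limit the precision. Whether differences are compressed among the brightest probe sets as well was not tested.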
